A study of Mus musculus with 11 samples.

Results

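The St3gal family holds 6 mouse genes, St3gal1 to St3gal6, whose products are sialyltransferases of the Golgi. The members were chosen by gene symbol, after the low St3gal4 value in KO colon had drawn attention to the family, so the members were selected on that measured value and St3gal4 is described in KO against WT with no test. They make up 6 of the 22243 genes, and 11 of the 28808 transcripts, in the deposited table. The series profiled polyadenylated RNA from full-thickness distal colon of 5 Nrg4-/- mice (KO) and 6 wild-type mice (WT). Nrg4 encodes neuregulin-4, an epidermal growth factor-like ligand of the receptor ErbB4. Both genotypes were adult, were housed together from 9 weeks of age and were dissected at 11 to 12 weeks, and both sexes were used without a sex being given per mouse. Cage A held KO-1, KO-8, WT-5 and WT-7, cage B held KO-4, KO-9, WT-2 and WT-11, and cage C held KO-3, WT-6 and WT-10. The labels do not give the strain or how the allele was made, and each mouse is taken as a separate animal.

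Sialic acid is an acidic sugar that caps the outer ends of glycans on glycoproteins and glycolipids. The St3gal enzymes move it from its activated donor, CMP-sialic acid, to a terminal galactose, and the members differ in the chain to which that galactose is attached. St3gal1 and St3gal2 act mainly on galactose joined to N-acetylgalactosamine, as in mucin-type O-glycans and, for St3gal2, gangliosides. St3gal3, St3gal4 and St3gal6 act on galactose joined to N-acetylglucosamine, as at the ends of N-glycans and extended O-glycans. St3gal5 sialylates lactosylceramide to make the ganglioside GM3. In the intestine, sialylated ends are carried by secreted and membrane-bound mucins and by the proteins of the epithelial surface.

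The coding sequences show how the members relate to each other, and so which could be confused when reads are assigned. One stretch of 48 bases, 16 codons long, is printed for each member because it holds the densest run of positions at which the 6 members are the same. It lies in the large sialylmotif, the region that binds the donor sugar, and 7 of its codons encode the same residue in the aligned proteins of all 6 members. Capitals mark the 13 bases that are identical in the 6 genes. Sequences are from GENCODE M21 transcripts (GRCm38, also called mm10), 5′ to 3′ on the coding strand.

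St3gal1: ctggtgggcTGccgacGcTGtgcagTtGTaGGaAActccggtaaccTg

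St3gal2: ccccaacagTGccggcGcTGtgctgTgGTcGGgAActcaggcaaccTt

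St3gal3: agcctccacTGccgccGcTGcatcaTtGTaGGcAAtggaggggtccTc

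St3gal4: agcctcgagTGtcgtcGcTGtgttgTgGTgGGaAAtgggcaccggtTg

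St3gal5: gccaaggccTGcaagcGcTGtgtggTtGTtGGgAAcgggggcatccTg

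St3gal6: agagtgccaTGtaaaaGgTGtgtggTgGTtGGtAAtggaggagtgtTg

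Each stretch lies in a coding exon or across coding exons. The St3gal1 stretch lies at chr15:67112481-67112528 (minus strand), that of St3gal2 at chr8:110962265-110962312 (plus strand) and that of St3gal5 at chr6:72142386-72142433 (plus strand), each within 1 exon. The stretches of St3gal3 (chr4:117959125-117959999), St3gal4 (chr9:35053422-35054064) and St3gal6 (chr16:58475900-58484764), all on the minus strand, cross an exon boundary, and these spans include the intron between. Over whole proteins, of 329 residues in St3gal6 to 387 in St3gal5, St3gal1 and St3gal2 were the closest pair, with 48.8% of aligned residues identical. St3gal3, St3gal4, St3gal5 and St3gal6 formed the other branch, from 33.3% (St3gal5 and St3gal6) to 39.1% (St3gal3 and St3gal5), and St3gal4 shared 38.2% with St3gal3 and 36.5% with St3gal6. Across the branches identity was 22.4% to 27.3%. No run of 31 bases in any of the 11 listed transcripts occurred in an annotated transcript of another member. Reads of that length or longer from a listed transcript are therefore not shared with another member. Unlisted transcripts of the members were not compared with each other.

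The values are TPM, a relative abundance that corrects for the length of a transcript and for the size of its library, and TPM of the listed transcripts of a gene were summed. Tests used limma on log2(TPM + 0.5) with genotype and cage in the model, over the 10756 genes that reached 1 TPM in 5 or more mice, and p-values were adjusted over all of them by Benjamini and Hochberg's method. A log2 difference is KO against WT on that scale with its standard error, and it understates the change of low genes. Means carry the SD over 5 KO and 6 WT mice. St3gal2, St3gal3, St3gal4 and St3gal6, 4 of the 6 members, passed the filter. St3gal1 did not, with 1 TPM or more in 2 mice, and St3gal5 was listed at 0 TPM in all 11. St3gal4 would have passed on its WT values alone.

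Nrg4, the targeted gene (chromosome 9, 55220222 to 55326844, minus strand), was listed at 0 TPM in each of the 11 mice, so the genotype labels could not be checked by its level. The column sums were 558446 TPM in KO-1, the lowest, to 770986 TPM in KO-3, the highest, and mitochondrially encoded genes held 19.0% of the sum in KO-1 and 42.9% in KO-3. The tissue label was checked against marker lists: 9 of 9 epithelial, 7 of 7 goblet cell and 6 of 8 smooth muscle markers reached 1 TPM on average. Summed epithelial markers were 8020 to 12786 TPM in KO mice and 9159 to 11760 TPM in WT mice, and those of absorptive colonocytes 2918 to 5312 TPM in KO mice and 2953 to 6793 TPM in WT mice. None of 6 squamous markers reached 1 TPM on average, and of 6 markers of small intestine and pancreas 1, Fabp6, did, at 34.1 TPM. Of 6 skeletal muscle markers 2 did, Acta1 at 5.99 TPM and Tnnt3 at 1.32 TPM. Eif2s3y, a Y-linked gene, was at 21.5 to 31.8 TPM in cage A and did not exceed 0.0523 TPM elsewhere, so cage A and sex cannot be told apart.

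The first comparison described each member in KO against WT colon. The listed St3gal4 transcript was nearly absent in KO mice, and by listed transcripts St3gal4 was on average the most abundant member in WT mice. St3gal6 and St3gal3, which act on the same kind of galactose end, differed between the genotypes by less than the SD of either group, and the low St3gal2 did not pass the test. In KO against WT, 4 of the 10756 genes passed a false discovery rate of 0.05, or 0.0372%, and 0 of the 3 other members tested were among them. That count of 4 genes was 2 when KO-1, KO-3, KO-4, KO-9, WT-2, WT-5 or WT-11 was left out.

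St3gal4 (chromosome 9, 35046576 to 35119268, minus strand) is an enzyme of the ends of N-glycans, and in mouse leukocytes it also makes selectin ligands. Its transcript was at 0.909 TPM in KO-1, 1.53 TPM in KO-8, 0.932 TPM in KO-4, 1.37 TPM in KO-9 and 1.21 TPM in KO-3. In the 6 WT mice it ranged from 92.4 TPM in WT-7 through a median of 173 TPM to 282 TPM in WT-10. The groups were far apart: the highest KO mouse was at 1.53 TPM and the lowest WT mouse at 92.4 TPM. The mean was 1.19 ± 0.271 TPM in KO mice and 177 ± 60.7 TPM in WT mice, so the WT mean was 149 times the KO mean, and the log2 difference was -6.61 ± 0.22. In the authors' deposited table, the log2 ratio of its single listed transcript was -7.22.

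The residual St3gal4 level in KO colon varied little, over 0.909 to 1.53 TPM, and no KO mouse was at 0. Within WT colon the level varied more, and the extremes, WT-7 and WT-10, were from different cages. WT-10 had the highest summed colonocyte markers of the 11 mice, 6793 TPM, but WT-7, at 3652 TPM, was not the lowest: WT-5 and WT-2 had 2953 and 3041 TPM of colonocyte markers with 179 and 172 TPM of St3gal4. Mitochondrially encoded genes held 31.4% of the sum in WT-10 and 19.1% in WT-7. The part of these values in the St3gal4 level was not tested. With mitochondrially encoded genes left out and the rest rescaled, St3gal4 was at 1.998 to 3.03 TPM in KO mice and 198 to 554 TPM in WT mice, with WT-7 again lowest and WT-10 again highest. In bulk tissue, fewer cells of a type and less RNA per cell cannot be told apart.

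**Figure D1:**
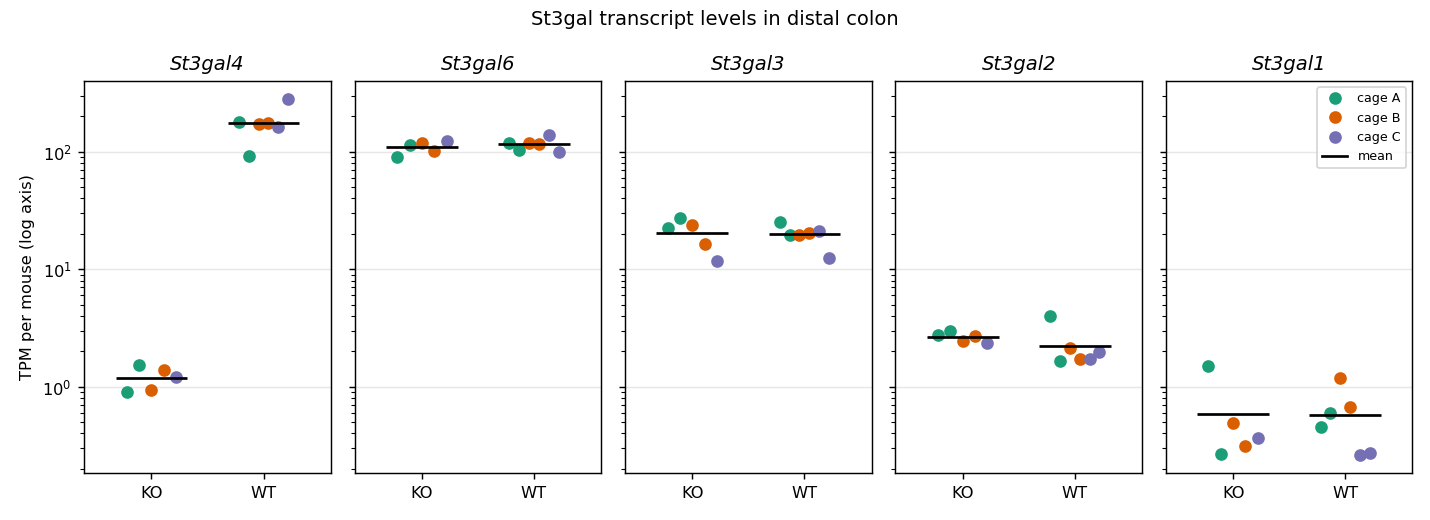
TPM of the 5 detected members in each mouse on a log axis, KO left of WT in each panel, with points coloured by cage and a bar at the group mean. St3gal4 lies between 0.909 and 1.53 TPM in KO mice and between 92.4 and 282 TPM in WT mice, while KO and WT points of the other members overlap.

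St3gal6 (chromosome 16, 58468125 to 58524243, minus strand), the member that acts with St3gal4 on galactose joined to N-acetylglucosamine in selectin ligands of mouse leukocytes, was the most abundant member in KO colon. It was at 90.7 TPM in KO-1, 114 TPM in KO-8, 119 TPM in KO-4, 102 TPM in KO-9 and 123 TPM in KO-3. In WT mice it ranged from 99.8 TPM through a median of 117 TPM to 139 TPM. The groups overlapped over most of their range, and the highest value was in WT-6. Its mean was 109.6 ± 13.3 TPM in KO mice and 115.9 ± 13.9 TPM in WT mice. The log2 difference was -0.07 ± 0.11 with an adjusted p of 1.00 by limma, and its 95% interval, -0.30 to 0.17, corresponds to 0.811 to 1.13 times the WT level. A rise of its summed listed transcripts beyond 1.13-fold in KO colon lay outside that interval, which is not adjusted for the number of genes. The sum covers 3 of the 15 annotated St3gal6 transcripts. For St3gal3 it covers 2 of 5, and for St3gal2 1 of 5. Their unlisted transcripts were not measured here.

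St3gal3 (chromosome 4, 117932154 to 118134914, minus strand) prefers galactose in the type of chain end found on many epithelial glycoproteins. It was at 22.3 TPM in KO-1, 27.1 TPM in KO-8, 23.7 TPM in KO-4, 16.5 TPM in KO-9 and 11.8 TPM in KO-3. In WT mice it ranged from 12.5 TPM in WT-10 through a median of 20.1 TPM to 25.4 TPM in WT-5. The highest and the lowest of the 11 mice were both KO mice. Its mean was 20.3 ± 6.05 TPM in KO mice and 19.8 ± 4.17 TPM in WT mice, with a log2 difference of -0.07 ± 0.17, an interval of 0.736 to 1.24 times the WT level and an adjusted p of 1.00 by limma. The sign of this small difference depended on the setting: it was 0.0077 without the cage term, and 0.060 without KO-3.

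St3gal2 (chromosome 8, 110919922 to 110972480, plus strand), an enzyme of gangliosides and mucin-type O-glycans, was low. It was at 2.77 TPM in KO-1, 2.95 TPM in KO-8, 2.43 TPM in KO-4, 2.68 TPM in KO-9 and 2.36 TPM in KO-3. In WT mice it ranged from 1.66 TPM through a median of 1.85 TPM to 4.005 TPM in WT-5. Each KO mouse was above 5 of the 6 WT mice and below WT-5. Its mean was 2.64 ± 0.243 TPM in KO mice and 2.20 ± 0.903 TPM in WT mice, with a log2 difference of 0.24 ± 0.19, an interval of 0.879 to 1.59 times the WT level and an adjusted p of 1.00 by limma. Single WT mice moved this value: it was 0.41 ± 0.14 without WT-5 (adjusted p = 0.811 by limma) and 0.11 ± 0.17 without WT-7 (adjusted p = 1.00). The summed endothelial and fibroblast markers of WT-5, 13.8 and 175 TPM, were the highest among WT mice, and summed endothelial markers averaged 11.7 ± 2.74 TPM in KO mice and 8.44 ± 3.60 TPM in WT mice. Which cells held the St3gal2 transcripts was not tested.

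St3gal1 (chromosome 15, 67102875 to 67176830, minus strand), which sialylates the core of mucin-type O-glycans, was near the floor. It was at 1.49 TPM in KO-1, 0.267 TPM in KO-8, 0.493 TPM in KO-4, 0.312 TPM in KO-9 and 0.363 TPM in KO-3. In WT mice it ranged from 0.262 TPM through a median of 0.527 TPM to 1.18 TPM in WT-2. The groups overlapped, and KO-1 and WT-2 stood above the rest. Its mean was 0.585 ± 0.513 TPM in KO mice and 0.573 ± 0.341 TPM in WT mice, and it was not tested.

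St3gal5 (chromosome 6, 72097592 to 72154571, plus strand) was listed at 0 TPM in every KO mouse and every WT mouse. The table holds 1 of its 4 annotated transcripts, St3gal5-202, and of the 2409 runs of 31 bases in it, 2376 also occur in St3gal5 transcripts that the table does not hold and 33 occur in no other annotated transcript. The listed 0 is therefore a value for that transcript and does not show that St3gal5 RNA was absent.

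The second comparison asked how the family as a whole stood once St3gal4 was low, and whether the listed transcripts of the other members were higher. The sum of the 6 members was below the WT range in each KO mouse, and the sum of the other 5 was close between the genotypes. The 6 members together held 118 to 146 TPM in KO mice, with a mean of 134 ± 13.1, against 218 to 397 TPM in WT mice, with a mean of 316 ± 57.2. The other 5 members together held 117 TPM in KO-1, 144 TPM in KO-8, 145 TPM in KO-4, 121 TPM in KO-9 and 138 TPM in KO-3. In WT mice they held 115 TPM in WT-10, the lowest, through a median of 140.4 TPM to 162 TPM in WT-6. The KO values lay within the WT range. The mean of the other 5 was 133 ± 13.1 TPM in KO mice and 138 ± 16.9 TPM in WT mice, 0.961 times the WT mean. The difference in the other 5 was -5.35 TPM, beside -176 TPM in St3gal4, so the sum of their listed transcripts was not higher where St3gal4 was low. St3gal5 enters it as 0, and its listed transcript does not stand for all St3gal5 RNA. A sum over members has no test here.

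The make-up of the family differed accordingly. St3gal4 held 0.890 ± 0.198% of the summed TPM of listed transcripts in KO mice and 54.8 ± 9.40% in WT mice, from 42.5% in WT-7 to 71.1% in WT-10. St3gal6 held 81.5 ± 4.67% in KO mice and 37.7 ± 7.54% in WT mice. The larger St3gal6 share in KO mice came with a St3gal6 level that was not higher.

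**Figure D2:**
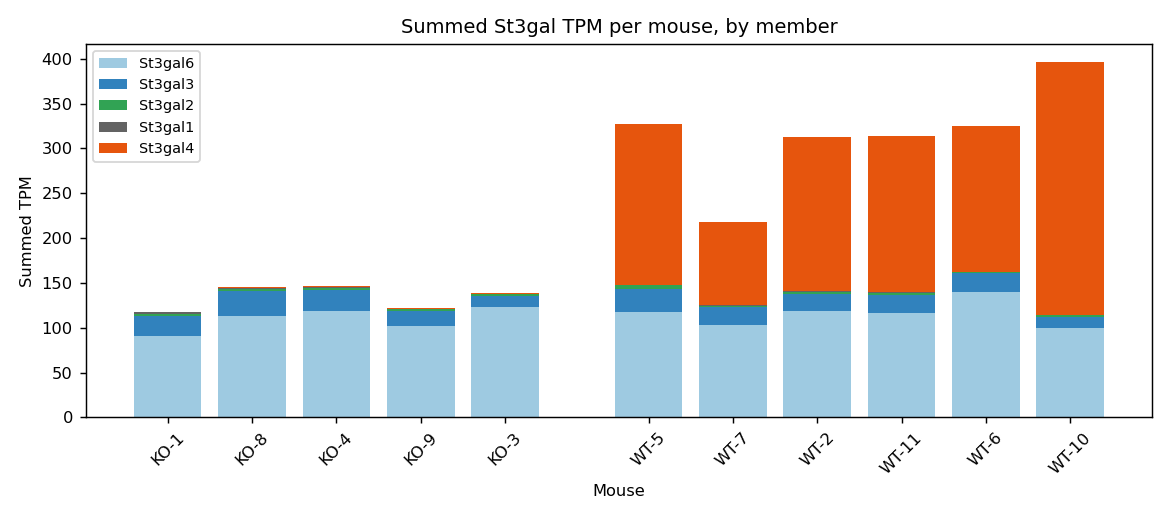
Stacked TPM of the members in each mouse, KO mice left of WT mice. The part above the other members is St3gal4, which is hardly visible in KO mice. The remaining stack reaches 117 to 145 TPM in KO mice and 115 to 162 TPM in WT mice.

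The order of the members by level differed between the genotypes. In KO mice it ran St3gal6, St3gal3, St3gal2, St3gal4, St3gal1 in 4 of 5 mice, and in KO-1 St3gal1 stood above St3gal4. In WT mice it ran St3gal4, St3gal6, St3gal3, St3gal2, St3gal1 in 5 of 6 mice, and in WT-7 St3gal6 stood above St3gal4. St3gal6 was 5.41 times St3gal3 by mean in KO mice and 5.86 times in WT mice, and the lowest St3gal6 value, 90.7 TPM, was above the highest St3gal3 value, 27.1 TPM. St3gal3 was 7.68 times St3gal2 in KO mice and 8.99 times in WT mice, again with no overlap. The neighbours whose ranges overlapped were St3gal4 and St3gal6 in WT mice, and St3gal4 and St3gal1 in KO mice.

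The third comparison set the members against cage, which the choice of the members did not use. St3gal3 was highest on average in cage A and lowest in cage C, and none of St3gal2, St3gal3 and St3gal6 passed the threshold. In the cage test 0 of 10756 genes passed, 0%, while 1303 had an unadjusted p below 0.05, 12.1% of them. St3gal3 averaged 23.5 ± 3.40 TPM over the 4 mice of cage A, 20.1 ± 2.93 TPM over the 4 of cage B and 15.2 ± 5.24 TPM over the 3 of cage C, with an adjusted p of 0.390 for cage by limma. The cage C value rested on KO-3 at 11.8 TPM and WT-10 at 12.5 TPM, which had the highest mitochondrially encoded shares of the 11 mice, while WT-6 of the same cage was at 21.2 TPM; the part of those shares was not tested. With those genes left out and the rest rescaled, St3gal3 was again lowest in KO-3 among KO mice, at 26.9 TPM, and in WT-10 among WT mice, at 24.5 TPM. The 3 cage means of St3gal6, from A to C, were 106 ± 12.1, 114 ± 8.16 and 121 ± 19.9 TPM, with an adjusted p of 0.767 by limma. The cage values of St3gal2 gave an adjusted p of 0.708 by limma. St3gal4, near the floor in KO mice, is described by cage with no test. Its WT means were 136 TPM (A), 173 TPM (B) and 223 TPM (C), over 2 mice each.

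The genotype difference was then taken within each cage. St3gal4 was lower in KO mice in each cage, with log2 differences of -6.26 (A), -6.73 (B) and -6.97 (C, where the KO value is from 1 mouse). In the same order of cages, the St3gal6 differences were -0.12, -0.10 and 0.07. Those of St3gal3 were 0.14, -0.02 and -0.44, and those of St3gal2 were 0.11, 0.34 and 0.29. In the test of whether the genotype difference depended on cage, 2 of 10756 genes passed, 0.0186% (0 without KO-3), and neither St3gal2, St3gal3 nor St3gal6 was among them, each with an adjusted p of 1.00 by limma. St3gal4 has no test of its genotype difference, so its cage values are a description.

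**Figure D3:**
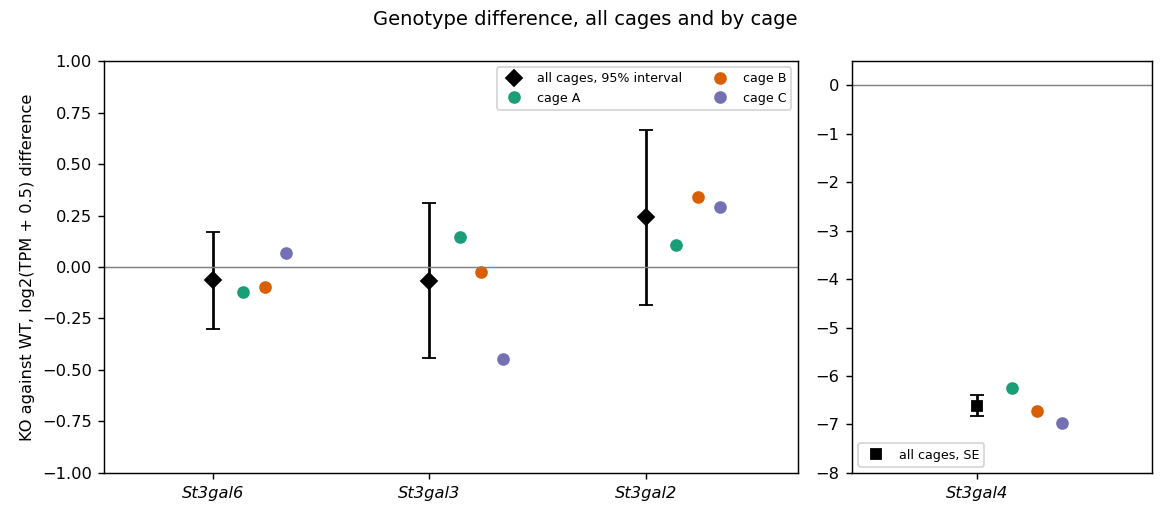
KO against WT difference in log2(TPM + 0.5) for the tested members, over all cages (black) and within each cage (coloured). Bars are 95% intervals for St3gal6, St3gal3 and St3gal2, which all span 0, and the standard error for St3gal4, which stands at -6.61 on its own axis.

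Transcripts were compared next, since 2 of the abundant members are listed with more than 1. The listed transcripts of a gene encode the same protein, so they differ outside the coding sequence. St3gal6-202 was the main St3gal6 transcript, with 73.2 ± 16.2 TPM in KO mice and 73.7 ± 12.5 TPM in WT mice, or 66.2 ± 7.86% of the gene's TPM in KO mice and 64.2 ± 13.0% in WT mice. St3gal6-201 was at 31.2 ± 6.01 TPM in KO mice and 37.0 ± 16.6 TPM in WT mice. WT-10 stood apart, with 8.72 TPM of St3gal6-201 against 24.8 TPM or more in each other mouse. St3gal6-207 was at 3.96 to 7.19 TPM in KO mice and 3.98 to 6.70 TPM in WT mice.

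St3gal3-203 was the main St3gal3 transcript, at 80.6 ± 15.1% of the gene's TPM in KO mice and 82.3 ± 7.10% in WT mice. Its share was 55.0% in KO-3, the lowest of the 11 mice, where the transcript was at 6.52 TPM. St3gal3-201 was at 5.33 TPM in KO-3, the highest of the 11 mice, against 2.32 to 3.49 TPM in the other KO mice and 2.39 to 5.09 TPM in WT mice. These splits rest on few distinguishing bases. Of the runs of 31 bases, 0 in St3gal6-201, 3.8% in St3gal6-202, 1.1% in St3gal3-203 and 14.9% in St3gal3-201 occur in no other annotated transcript. The small St3gal6-207 shares 1573 of its 4093 runs with transcripts of another gene, Dcbld2, which touches the St3gal6 sum. St3gal4-201, the single listed St3gal4 transcript of 9 annotated, is better marked, with 65.8% of its 2065 runs found nowhere else, 582 shared with unlisted St3gal4 transcripts and 124 shared with transcripts of Ciita, Olfr830 and 4930581F22Rik. In the authors' deposited table, each transcript of another member with a q-value had a q-value of 1.

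**Figure D4:**
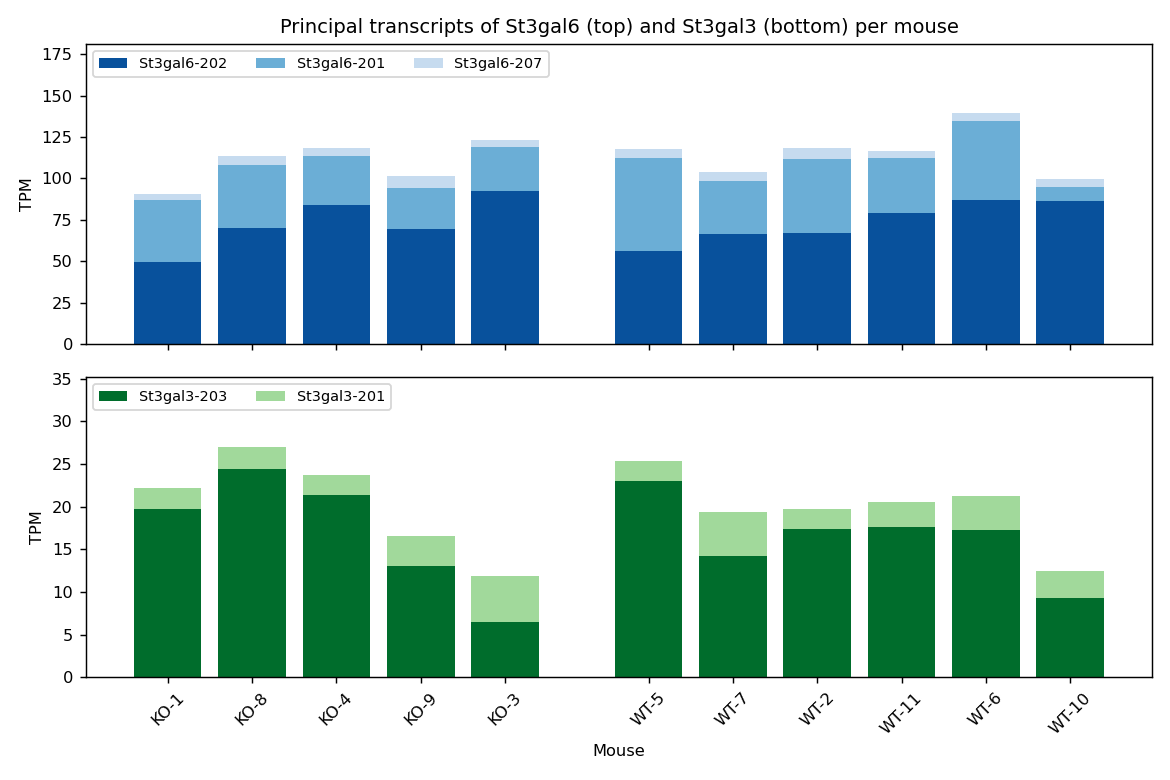
Stacked TPM of the listed transcripts of St3gal6 (top) and St3gal3 (bottom) in each mouse, KO mice left of WT mice. The low St3gal6-201 part in WT-10, 8.72 TPM, and the low St3gal3-203 part in KO-3, 6.52 TPM, stand out.

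The rest of the sialylation pathway was read from 5 lists. In KO against WT, 0 members of each list passed the threshold, beside the 0.0372% of all genes, and the smallest adjusted p in each list was 1.00 by limma. The median log2 difference over all tested genes was -0.01, with 46.8% of them positive. The other sialyltransferases, the St6gal, St6galnac and St8sia genes, had 5 of 14 members tested, of which 4 had a positive and 1 a negative difference, with a median of 0.10. St6galnac4, an enzyme that adds sialic acid to sialylated O-glycan cores, was at 18.5 ± 4.68 TPM in KO mice and 15.8 ± 2.75 TPM in WT mice, a log2 difference of 0.25 ± 0.16. St6galnac2, which acts on similar cores, differed by 0.11 ± 0.18, and St8sia5, a ganglioside sialyltransferase, by 0.10 ± 0.29. St8sia5 was lowest in cage A, at 2.73 ± 1.71 TPM, with 4.47 ± 1.51 TPM in cage B and 5.92 ± 0.955 TPM in cage C and an adjusted p of 0.384 for cage by limma.

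Sialic acid supply and removal had 10 of 15 members tested, 6 with a positive and 4 with a negative difference and a median of 0.01. Cmas, which makes CMP-sialic acid, was at 179 ± 19.4 TPM in KO mice and 217 ± 24.6 TPM in WT mice, a log2 difference of -0.26 ± 0.10 that did not pass the threshold. Slc17a5, the lysosomal sialic acid exporter, differed by -0.23 ± 0.24 and Casd1, which acetylates sialic acid, by -0.11 ± 0.11.

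The builders of the chains that St3gal enzymes cap had 19 of 24 members tested, 9 positive and 10 negative, with a median of -0.02. B3gnt2, which extends N-acetyllactosamine chains, differed by -0.29 ± 0.25, B3galt4, a ganglioside galactosyltransferase, by -0.23 ± 0.16, and Gcnt1, which branches O-glycan cores, by -0.18 ± 0.10. Gcnt1 had the smallest cage p of the list: cage A had 14.9 ± 2.53 TPM, cage B had 26.0 ± 2.69 TPM and cage C had 26.6 ± 1.64 TPM, with an adjusted p of 0.146 by limma.

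Other enzymes that act on galactose ends, and could use the same acceptors, had 11 of 18 members tested, 6 positive and 5 negative, with a median of 0.04. Abo, the blood group A and B transferase, differed by -0.64 ± 0.29, and its cage means were 6.26 ± 1.53 TPM (A), 7.24 ± 1.89 TPM (B) and 2.28 ± 2.13 TPM (C), with an adjusted p of 0.263 for cage by limma. B4galnt2, which adds N-acetylgalactosamine to sialylated ends, was at 22.3 ± 9.20 TPM in KO mice and 17.3 ± 5.50 TPM in WT mice, a log2 difference of 0.36 ± 0.29. Fut4, a fucosyltransferase of N-acetyllactosamine chains, differed by -0.14 ± 0.13. Gal3st1, a galactose sulfotransferase, differed by -0.05 ± 0.12 and gave an adjusted p of 0.343 for cage by limma.

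Carriers and binders of sialylated glycans had 11 of 26 members tested, 4 positive and 7 negative, with a median of -0.09. Lgals8, a galectin that binds sialylated galactose ends, was at 5.35 ± 1.40 TPM in KO mice and 8.68 ± 2.50 TPM in WT mice, a log2 difference of -0.65 ± 0.18 that did not pass the threshold. Lgals9, another galectin, differed by -0.29 ± 0.20 and Muc3, a membrane mucin, by -0.13 ± 0.09. Muc13, also a membrane mucin, differed by 0.01 ± 0.10 and gave an adjusted p of 0.496 for cage by limma.

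**Figure D5:**
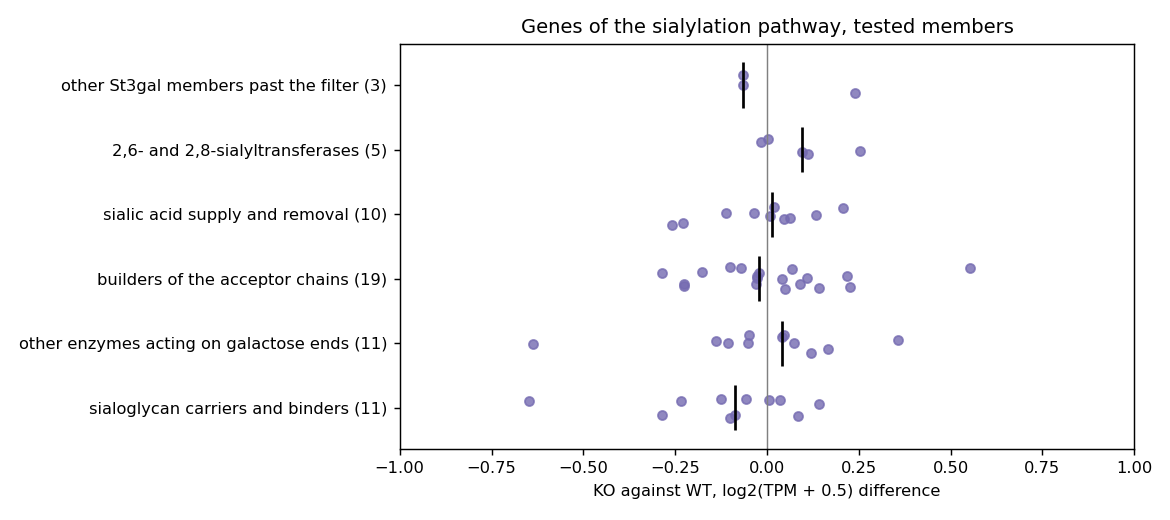
KO against WT difference in log2(TPM + 0.5) of each tested gene of the other St3gal members and of the 5 pathway lists, with the number tested in parentheses and a bar at the median. The list medians lie between -0.09 and 0.10, and no point passed the threshold.

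The genes around St3gal4 were described after their values were seen. Within 1 Mb of it, 8 genes were tested and 0 passed the threshold, beside 0.0372% of all genes, with log2 differences from -0.32 to 0.03. All 8 lie at higher coordinates than St3gal4, at up to 442 kb. No gene at lower coordinates within 1 Mb passed the filter, so that side was not covered. Dcps, the nearest at 5.14 kb and an mRNA cap-scavenging enzyme, was at 19.9 ± 2.51 TPM in KO mice and 24.7 ± 3.44 TPM in WT mice, a log2 difference of -0.32 ± 0.11 with an adjusted p of 1.00 by limma. St3gal4 and Nrg4 lie 20.1 Mb apart on the same chromosome.

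The genes whose levels were most like those of each member were named by Pearson's r of log2(TPM + 0.5) over the 11 mice, as a description. The mice share cages and library composition. With so few mice and so many genes compared, the highest r values are large in part through that selection. For St3gal4 they were Nxpe4 (r = 0.990), Hspa8 (r = 0.942), Galnt2 (r = 0.884), Mrps12 (r = 0.865) and Hras (r = 0.856). The genotypes stand apart on St3gal4, so these values largely restate the genotype difference, and over the 6 WT mice alone r was 0.735 for Nxpe4, 0.227 for Hspa8, 0.810 for Galnt2, 0.203 for Mrps12 and 0.742 for Hras. The genes most like St3gal6 were Pcmtd1 (r = 0.940), Rpe (r = 0.912) and Qsox2 (r = 0.870). Those most like St3gal3 were Snx24 (r = 0.943), Iqgap3 (r = 0.937) and Mtg2 (r = 0.934), and those most like St3gal2 were Ehd2 (r = 0.952), Plod1 (r = 0.950) and Pea15a (r = 0.923). Between members, r over the 6 WT mice was -0.07 for St3gal4 and St3gal6, -0.50 for St3gal4 and St3gal3 and 0.24 for St3gal4 and St3gal2. It was 0.63 for St3gal3 and St3gal6, 0.44 for St3gal2 and St3gal3 and 0.04 for St3gal2 and St3gal6.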

How the data were processed

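RNA of distal colon from 5 KO and 6 WT mice was read as single-end reads of 75 nt from stranded mRNA libraries, per the labels' protocols. The submitters' processing notes name kallisto, sleuth and CASAVA and the build mm10, without versions. The authors deposited TPM per transcript and mouse for principal transcripts, with their own p-value, q-value and log2 ratio, per the file headers. TPM keeps no sequencing depth, so the depth is unknown and no counting interval is given. Of 29213 rows, 405 repeats were dropped, and TPM were summed per gene. Of the transcripts, 96.0% were found in GENCODE M21 with the same version. limma 3.58.1 (R 4.3.3) was fitted to log2(TPM + 0.5) of 10756 genes with its trend option and a model of genotype and cage, with Benjamini-Hochberg adjustment and a false discovery rate of 0.05, and F tests for cage and for cage by genotype. MAFFT 7.526 aligned the translated coding sequences.

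The members, gene lists and tests were chosen with earlier results of these data known. Named genes are the members; for each list, members past the threshold, the 3 with the smallest genotype p and the 2 with the smallest cage p; and the 5 (St3gal4) or 3 (other members) genes with the highest r, leaving out members, unnamed gene models and antigen receptor segments. For St6galnac2, which has more than 1 gene identifier, the more abundant was used. Alternatives covered the pseudocount, the filter, scaling, transcripts as features, array weights, the cage term, and leaving out each mouse or cage.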

Additional observations from a re-analysis of the deposited data

Results flagged for a closer look

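In 7 of 48 groups of mice tested, 1 mouse stood far from the others of its genotype. The test, on the gap to the neighbour, flags about 1 in 20 groups by chance. The 48 groups are not independent, because values of a gene and of its transcripts overlap. All 7 flags came from the low St3gal1 and St3gal2 or their transcripts, so their number is not set against that rate. St3gal1 was at 1.49 TPM in KO-1, where the next KO mouse was at 0.493 TPM. A pair of its transcripts stood out in the same mouse: St3gal1-201 at 0.931 TPM, where the next KO mouse was at 0.363 TPM, and St3gal1-202 at 0.560 TPM, where the next was at 0.0734 TPM. Among WT mice, St3gal1-202 was at 1.18 TPM in WT-2, where the next was at 0.307 TPM. St3gal1-203 was at 0.170 TPM in KO-4, where the next KO mouse was at 0.0260 TPM. These St3gal1 splits rest on few distinguishing bases. Of the runs of bases counted as for St3gal6 and St3gal3, 0 in St3gal1-201, 1.4% in St3gal1-202 and 0 in St3gal1-203 occur in no other annotated transcript. St3gal1-201 and St3gal1-202 each share 121 runs with transcripts of other genes. The flags therefore do not show which St3gal1 transcript differed. St3gal2, and so its single listed transcript St3gal2-201, was at 4.005 TPM in WT-5, where the next WT mouse was at 2.13 TPM.

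Some marker sums of other cell types were also high in KO-1, WT-2 and WT-5. In KO-4, summed leukocyte markers were 39.2 TPM, the lowest among KO mice. Summed leukocyte markers were 177 TPM in KO-1, the highest of the 11 mice, and 148 TPM in WT-2, the next. WT-5 had the highest summed smooth muscle and fibroblast markers, 5142 and 175 TPM. Which cells held the St3gal1 and St3gal2 transcripts was not tested.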

How the results depend on the processing

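Of St3gal2, St3gal3 and St3gal6 none passed the threshold in KO against WT or in the interaction test under 22 alternatives each. None of them passed in the cage test under 21. No paired analysis was possible because the genotypes share no replicate numbers; cage was a term instead. The St3gal4 log2 difference was -7.01 to -6.24 over the alternatives, and that of St3gal2 0.11 (without WT-7) to 0.41 (without WT-5). The St3gal3 difference changed sign to 0.0077 without the cage term, 0.060 without cage C or without KO-3 and 0.033 without WT-6, and was 1.84e-05 without KO-9; leaving out 1 mouse at a time gave -0.15 to 0.060. The St3gal6 difference was 0.031 with single transcripts as features. With the most abundant transcript of each gene alone, the St3gal4 share was 1.28% in KO mice and 64.4% in WT mice. The sum of the other 5 was 0.929 to 1.01 times the WT mean. The causes were not tested.

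Over all genes, 4 passed in KO against WT. The count was 2 with no filter on low values, without cage B or C, and without KO-1, KO-4, KO-9, KO-3, WT-5, WT-2 or WT-11. It was 3 without KO-8, WT-6 or WT-10, and 5 with no cage term. The 0 genes of the cage test became 4 with no filter, 1 with single transcripts, 3 without KO-4 or cage B, 2 without KO-9, KO-3, WT-7 or cage C, and 1 without WT-11. The 2 genes of the interaction test became 12 with a pseudocount of 0.1, 49 with no filter and 5 with single transcripts or without WT-5. They became 3 without WT-2 or WT-11, and 0 without KO-3 or cage C. The count was 1 without KO-1, KO-4, KO-9, WT-7, WT-6, WT-10, cage A or cage B. Principal transcripts alone are held, and 1 mouse forms the KO arm of cage C.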

Other observations

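The members other than St3gal4 and St3gal5 were set against the summed markers of 11 cell types over the 11 mice, after the high values in single mice had been seen. For St3gal1, St3gal2, St3gal3 and St3gal6 this gave 44 relations on the log2(TPM + 0.5) scale. Each had a two-sided permutation test of 100000 resamples, with Benjamini-Hochberg adjustment over the 44. Mice were permuted across cages and genotypes. The same mice had drawn attention to the relations with leukocyte, fibroblast, endothelial and smooth muscle markers, so these p-values are descriptive. They give no independent support. St3gal4 was left out because the genotypes form separate clusters, and St3gal5 because it was listed at 0.

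St3gal1 was higher in mice with more summed leukocyte markers, with Pearson's r = 0.902 (permutation p = 1e-04, adjusted p = 0.0044) and Spearman's rho = 0.855 (permutation p = 0.00151, adjusted p = 0.027). Without KO-1 and WT-2, the mice farthest from the median of the marker sum, r was 0.802 over 9 mice.

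St3gal2 was higher in mice with more fibroblast markers, with r = 0.853 (permutation p = 0.00091, adjusted p = 0.02) and rho = 0.845 (permutation p = 0.00184, adjusted p = 0.027), and r was 0.756 over 9 mice without WT-5 and KO-9. It was also higher with more endothelial markers, with r = 0.816 (permutation p = 0.00216, adjusted p = 0.0307) and rho = 0.882 (permutation p = 0.00089, adjusted p = 0.027), and r was 0.761 without WT-7 and WT-6. With smooth muscle markers r was 0.809 (permutation p = 0.00279, adjusted p = 0.0307) and rho was 0.745 (permutation p = 0.0113, adjusted p = 0.125), and r was 0.854 without WT-5 and KO-3. No other relation passed the threshold by Pearson's r. Cages hold 4 mice or fewer, too few for a value each; with cage means removed, r was 0.880 for St3gal1 and leukocyte markers, and 0.873, 0.865 and 0.749 for St3gal2 and fibroblast, endothelial and smooth muscle markers. Markers and members come from the same libraries, and the marker sums of fibroblasts, endothelium and smooth muscle are not independent of each other.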
